A study of Mus musculus with 6 samples.

Results

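The genes described here code for the secreted and membrane-bound metalloproteinases that cut the extracellular matrix and for their inhibitors: 15 matrix metalloproteinases (Mmp), 18 proteases of the ADAMTS family, 5 ADAMTS-like genes (Adamtsl), 4 tissue inhibitors of metalloproteinases (Timp) and Reck. These 43 genes were chosen by name from a list of 39179 genes with counts, and all 43 symbols matched an Ensembl gene. The tissues were the cochlear and the vestibular sensory epithelium of newborn (P0) wild type C57Bl/6J mice of both sexes pooled, with no treatment in either group. RNA came from 20 inner ears of 10 mice, and 3 libraries per tissue were sequenced from 450 ng of RNA each. No source used here says that the 3 libraries of a tissue were separate pools of animals. The p-values therefore measure only the spread between libraries, which need not be a spread between animals. Libraries of the cochlea also differed strongly in skeletal muscle genes, as given below. Of the 43 genes, 38 had at least 1 CPM (a count scaled to the library's total) in 3 or more libraries and were tested, 37 of them with 1 CPM in all libraries and Mmp19 with 1 CPM in 4. The 5 below that level were Mmp3, Mmp8, Mmp12, Mmp13 and Timp4.

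Matrix metalloproteinases are made as inactive precursors and, once activated, cut collagens, gelatin, laminins and other matrix proteins with the help of a zinc ion. ADAMTS proteases share the zinc-dependent catalytic domain but carry thrombospondin repeats that hold them in the matrix; different members mature procollagens, cut large proteoglycans or act at microfibrils. ADAMTS-like proteins keep the thrombospondin repeats and lack the protease domain. TIMPs block the active site, and RECK is a membrane-anchored inhibitor. In the inner ear the sensory epithelia are covered by an acellular matrix, the tectorial membrane in the cochlea and the otolithic membranes and cupulae in the vestibule, and rest on mesenchyme that is rich in collagen.

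The catalytic signature is printed for members whose tissue difference is described, because it marks which families can cut. It is a run of 11 codons in which histidine codons hold the zinc, with a glycine or asparagine codon between the second and the third of them. Each site is read 5′ to 3′ from the coding transcripts of GENCODE vM21 (build GRCm38), with the 3 histidine codons and the glycine or asparagine codon in capitals.
Mmp14: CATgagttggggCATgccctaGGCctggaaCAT
Mmp23: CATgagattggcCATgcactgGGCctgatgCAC
Mmp24: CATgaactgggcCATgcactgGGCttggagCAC
Adamts2: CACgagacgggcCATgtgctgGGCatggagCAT
Adamts14: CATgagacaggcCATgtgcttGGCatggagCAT
Adamts17: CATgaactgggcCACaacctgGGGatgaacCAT
Adamts1: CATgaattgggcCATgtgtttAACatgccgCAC
Adamts20: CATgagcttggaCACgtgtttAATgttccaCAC
The Mmp sites each lie in 1 exon, at chr14:54437627-54437659 (plus strand) for Mmp14, chr4:155651528-155651560 (minus strand) for Mmp23 and chr2:155807427-155807459 (plus strand) for Mmp24. The printed Adamts sites each span an intron, from chr11:50775403-50776134 (plus strand) for Adamts2, chr10:61225465-61227123 (minus strand) for Adamts14, chr7:66968898-67002473 (plus strand) for Adamts17, chr16:85799191-85799545 (minus strand) for Adamts1 and chr15:94353678-94355296 (minus strand) for Adamts20. The signature was found in 15 of 15 Mmp genes, each with glycine, and in 17 of 18 Adamts genes, 12 with glycine and 5 with asparagine. The asparagine form was in Adamts1, Adamts4, Adamts9, Adamts15 and Adamts20, all members of the proteoglycan-cutting group. Adamts8 did not match these letters. None of the 5 Adamtsl genes, the 4 Timp genes or Reck held the signature.

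The libraries held between 24464483 and 33664793 counts on genes, so that 1 CPM stood for 24.5 to 33.7 counts. Values per library below are CPM after TMM scaling, written as scaled CPM, and fold changes are log2 values given as vestibule minus cochlea. Marker genes of the sensory epithelium were present in every library: 7 hair cell genes summed to 559 to 767 scaled CPM in the cochlea and 994 to 1167 in the vestibule, and 7 supporting cell genes to 587 to 705 and 291 to 314. Neither tissue was epithelium alone. For the marker calls that follow, 15.8% of all genes tested were called higher in the vestibule and 11.6% higher in the cochlea. Macrophage genes (8 of 8 called higher in the vestibule) summed to 113 to 132 scaled CPM in the cochlea and 474 to 553 in the vestibule, and 5 melanocyte genes to 31.6 to 65.2 and 258 to 340. All 5 melanocyte genes were called, but Tyrp1 and Mlana were below 1 CPM in every cochlear library and entered the test only through the vestibule. Endothelial genes summed to 193 to 233 and 364 to 499, with 4 of 6 called higher in the vestibule and Emcn called higher in the cochlea (129 against 37.0 scaled CPM). Summed mesenchymal genes came to 2145 to 2567 and 1878 to 2070, and cartilage and bone genes to 3539 to 3648 and 3837 to 4574. The 9 mesenchymal genes went both ways, with 2 called higher in each tissue. Lum (896 and 157 scaled CPM) and Pou3f4 (120 and 92.6) were higher in the cochlea. Pdgfra (195 and 434) and Tbx18 (330 and 434) were higher in the vestibule, so the sum gives no single direction. Schwann cell genes (3 of 6 called higher in the vestibule) summed to 451 to 668 and 834 to 1342, and dark cell and stria genes (5 of 6) to 672 to 794 and 980.5 to 1175. Skeletal muscle genes stood at 250.1 scaled CPM in cochlea replicate 3 and at 7.15 to 22.4 in the other libraries. In such bulk RNA fewer cells of a type and less RNA per cell cannot be told apart, and the part of cell composition in the results below was not tested.

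**Figure D1:**
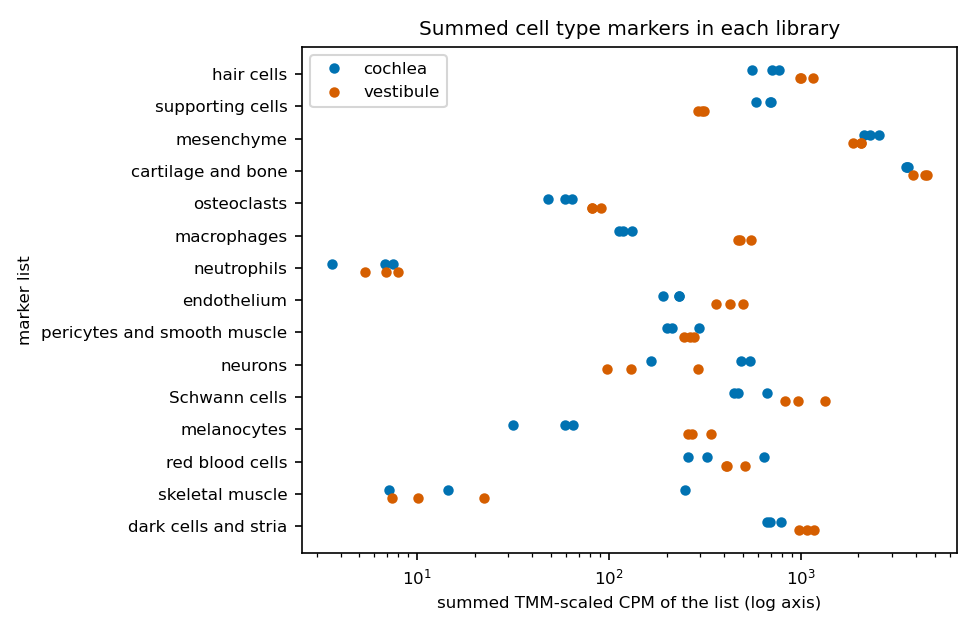
Summed scaled CPM (log axis) of 15 lists of cell type markers in each library, with the 3 cochlear libraries in blue and the 3 vestibular libraries in orange. Macrophage and melanocyte genes lay higher in all 3 vestibular libraries, supporting cell genes in all 3 cochlear libraries, and the skeletal muscle sum of 1 cochlear library stood at 250.1.

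Of the 38 tested members, 15 (39.5%) differed between the tissues at an FDR of 0.05, against 27.4% of all 14723 genes tested. The 9 higher in the vestibule were Mmp9, Mmp23, Timp3, Adamts1, Adamts10, Adamts20, Adamtsl1, Adamtsl3 and Adamtsl4, and the background in this direction was 15.8%. The 6 higher in the cochlea were Mmp16, Mmp24, Adamts2, Adamts14, Adamts15 and Adamts17, and the background in that direction was 11.6%. The libraries of the tissues did not overlap for 21 of the 38 members, against 41.8% of all genes tested. Of these 14 were higher in the vestibule and 7 in the cochlea, where the shares of all genes tested were 22.3% and 19.5%. The median log2 fold change was 0.19 over the tested members and 0.0048 over all genes tested. By family, 2 Mmp genes were called higher and 2 lower in the vestibule of 11 tested, 3 and 4 of 18 Adamts genes, 3 and 0 of 5 Adamtsl genes, and 1 and 0 of 3 Timp genes. Leaving out 1 library at a time gave 6 to 10 members higher in the vestibule, with 6 without cochlea replicate 2 or vestibule replicate 1, and 6 higher in the cochlea each time.

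**Figure D2:**
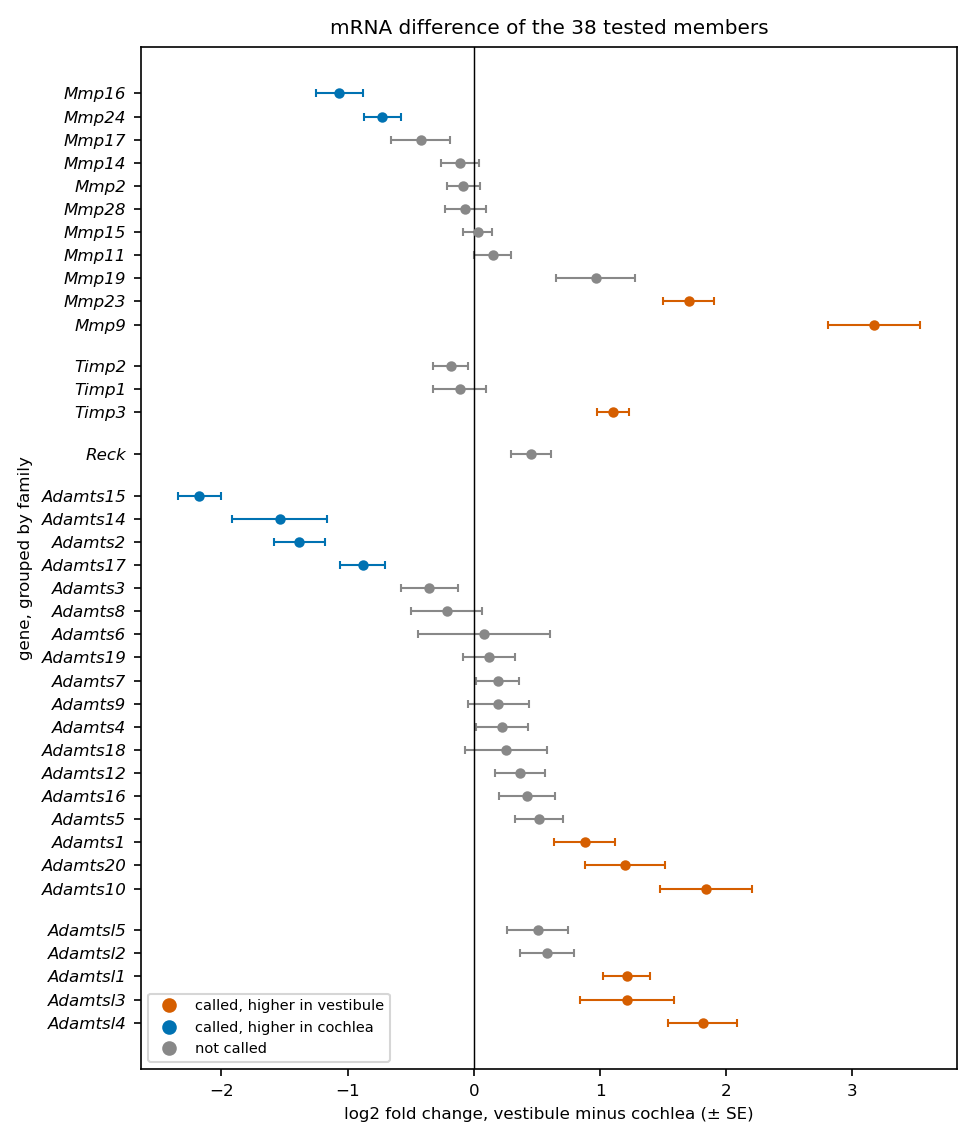
Log2 fold change (vestibule minus cochlea, with the standard error as bars) of each tested member, grouped by family, in orange or blue where called higher in the vestibule or the cochlea and in grey where not called. All 5 Adamtsl genes lie to the right of 0, while the Mmp and Adamts genes spread to both sides, from −2.18 for Adamts15 to 3.17 for Mmp9.

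The gelatinases cut denatured collagen and collagen IV, and 1 of the 2 was called, against 27.4% of all genes tested. Mmp9, which is made by macrophages, osteoclasts and neutrophils among other cells, had 2.84, 2.60 and 1.85 scaled CPM in the cochlear libraries and 12.7, 20.2 and 32.8 in the vestibular ones. Every vestibular library was above every cochlear one, and the vestibular libraries differed among themselves more than the cochlear ones did. The log2 fold change was 3.17 (SE 0.36, adjusted p = 0.000315), the largest of the tested members. Beside it, summed macrophage genes were higher in all 3 vestibular libraries as given above. Summed osteoclast genes stood at 48.0 to 64.6 scaled CPM in the cochlea and 81.4 to 91.5 in the vestibule, most of it Ctsk (means of 56.7 and 81.0). Acp5, at means of 0.59 and 3.44, passed the filter only through the vestibule. Dcstamp, Ocstamp and Calcr, at means of 0.21 or less, were below it. Summed neutrophil genes stood at 3.59 to 7.49 and 5.36 to 7.97. Neither of the 2 neutrophil genes that could be tested, S100a8 and S100a9, was called. Mmp2, the gelatinase of mesenchymal cells, had 659, 719 and 727 scaled CPM in the cochlea against 671, 622 and 695 in the vestibule. These libraries overlapped, and the log2 fold change of −0.08 (SE 0.13, adjusted p = 0.687) was within the spread and took the other sign with scaling by library size alone.

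The membrane-type enzymes act at the cell surface, and 3 of 6 were called, against 27.4% of all genes tested. Mmp23, an enzyme with an N-terminal membrane anchor, had 3.18, 2.83 and 2.86 scaled CPM in the cochlea against 10.8, 10.0 and 8.01 in the vestibule. All vestibular libraries were higher, with a log2 fold change of 1.70 (SE 0.20, adjusted p = 0.000361). Mmp16 and Mmp24 went the other way. Mmp16 (MT3-MMP), an activator of pro-MMP2, had 39.3, 30.5 and 47.6 scaled CPM in the cochlea against 21.3, 17.0 and 17.7 in the vestibule. Its log2 fold change was −1.07 (SE 0.19, adjusted p = 0.00301). Mmp24 (MT5-MMP), best known from neurons, had 17.1, 16.6 and 16.1 scaled CPM in the cochlea against 10.4, 10.5 and 9.12 in the vestibule, with a log2 fold change of −0.73 and an adjusted p of 0.00632. Summed neuronal genes were 166 to 542 scaled CPM in the cochlear libraries and 98.3 to 290.5 in the vestibular ones. Against 11.6% of all genes tested, 3 of the 6 neuronal genes (Tubb3, Stmn2 and Elavl4) were called higher in the cochlea, and 0 in the vestibule. Their part in the Mmp24 result was not tested.

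The other 3 membrane-type enzymes were not called. Mmp14 (MT1-MMP), the main activator of pro-MMP2 and itself a collagenase, had 310, 339 and 395 scaled CPM in the cochlea against 372, 304 and 292 in the vestibule. Its log2 fold change was −0.11 (SE 0.15, adjusted p = 0.639). Mmp15 (MT2-MMP) had 110, 99.5 and 106 scaled CPM in the cochlea against 114, 104 and 104 in the vestibule. Its log2 fold change was 0.03 (SE 0.12, adjusted p = 0.877). Mmp17, which is held by a lipid anchor, was low, at 2.21 ± 0.11 scaled CPM in the cochlea and 1.65 ± 0.28 in the vestibule (SD, n = 3). Its libraries did not overlap, and the adjusted p was 0.222.

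Of the other secreted enzymes, Mmp11 (stromelysin-3) and Mmp28 (epilysin) overlapped between the tissues. Their scaled CPM were 51.3 ± 8.71 and 56.9 ± 2.64 for Mmp11 and 10.7 ± 0.35 and 10.2 ± 1.12 for Mmp28 (cochlea and vestibule, SD, n = 3). Mmp19 stood at the threshold: it had 0.71, 1.02 and 1.60 scaled CPM in the cochlea against 2.32, 2.22 and 2.02 in the vestibule, a log2 fold change of 0.97 and an adjusted p of 0.050, which was not under it. It was called in 7 of 16 alternatives, among them scaling by library size alone or by upper quartile, no filter, limma-voom, the exact test and the looser threshold. Over all alternatives but the looser threshold, called or not, the adjusted p-values lay between 0.00945 and 0.149. The lowest came without cochlea replicate 3, at a log2 fold change of 1.33. Exons of Tmem198b on the opposite strand cover 22.3% of the Mmp19 exon length, and whether the authors counted by strand is not given in the sources used here.

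The collagenases and stromelysins that mark inflamed or ossifying tissue had few counts. Mmp13, the collagenase of osteoblasts and hypertrophic chondrocytes, had counts of 6, 2 and 4 in the cochlea against 38, 23 and 38 in the vestibule. It reached 1 CPM in 2 libraries and so was not among the tested members. In the fit without a filter on low counts, over 24771 genes, its log2 fold change was 2.83 (SE 0.50, adjusted p = 0.000385). Genes of the cartilage and bone list went both ways beside it. Ibsp, a matrix protein of bone, was at 0.66 scaled CPM in the cochlea and 12.6 in the vestibule, and Sp7, the osteoblast transcription factor, at 1.52 and 4.98. Matn1, a cartilage matrilin, was at 151 and 6.22, Cnmd (chondromodulin) at 760.1 and 579.9 without a call, and Bglap (osteocalcin) had counts of 5, 0 and 0 against 1, 2 and 0. Of the 7 tested genes of the cartilage and bone list, 4 were called higher in the vestibule and 1, Matn1, in the cochlea. The shares of all genes tested were 15.8% and 11.6%. Mmp8, the neutrophil collagenase, had counts of 9, 6 and 4 in the cochlea against 12, 8 and 12 in the vestibule. Mmp12, the macrophage elastase, had 5, 5 and 4 against 8, 3 and 6 counts. Mmp3 (stromelysin-1) had no count in the cochlear libraries and counts of 1, 0 and 1 in the vestibular ones, too few to compare.

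Among the inhibitors only Timp3 was called. TIMP3 is the inhibitor that binds to the matrix, and it also blocks ADAMTS and ADAM proteases. Its scaled CPM were 243, 217 and 250 in the cochlea against 501, 490.1 and 530 in the vestibule. The values were tight within each tissue and far apart between them, with a log2 fold change of 1.10 (SE 0.13, adjusted p = 0.000313). Timp3 lies inside Syn3 on the opposite strand, and Syn3 exons cover 21.3% of its exon length. Timp2, which inhibits MMP2 and also helps its activation at MMP14, had 702, 622 and 704 scaled CPM in the cochlea against 546, 581 and 656 in the vestibule. Those libraries overlapped, with a log2 fold change of −0.18 (SE 0.14, adjusted p = 0.373). Timp1, an inhibitor induced in injury, had 7.61, 5.88 and 6.77 scaled CPM in the cochlea against 5.03, 6.43 and 7.30 in the vestibule, with a log2 fold change of −0.11 (SE 0.21, adjusted p = 0.731). Timp4 had counts of 15, 19 and 23 in the cochlea against 14, 12 and 30 in the vestibule and was below the filter. Reck was higher in each vestibular library, at 64.0, 55.4 and 57.4 scaled CPM against 48.6, 34.2 and 46.8 in the cochlea, but its adjusted p of 0.0674 did not pass.

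The procollagen N-proteinases remove the amino-terminal propeptides of fibrillar procollagens. Of these, 2 of 3 were called, both higher in the cochlea, against 11.6% of all genes tested in that direction. Adamts2 had 156, 146 and 239 scaled CPM in the cochlea against 76.8, 68.4 and 62.1 in the vestibule. Its lowest cochlear library was above its highest vestibular one, with a log2 fold change of −1.38 (SE 0.20, adjusted p = 0.00116). Adamts14 had 11.4, 17.6 and 29.8 scaled CPM in the cochlea against 8.04, 8.02 and 4.16 in the vestibule. The log2 fold change was −1.54 (SE 0.38, adjusted p = 0.0158), and its cochlear libraries were widely spread. Cochlea replicate 3 was the highest library for both genes. Adamts3, which matures procollagen II and the lymphatic growth factor VEGF-C, had 14.2 ± 4.27 scaled CPM in the cochlea and 11.1 ± 1.18 in the vestibule (SD, n = 3), and its libraries overlapped. Its cochlea replicate 3 was also the highest, at 19.1 scaled CPM.

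The proteoglycanases cut aggrecan, versican and related proteoglycans. Of these, 3 of 7 were called, in both directions, against 27.4% of all genes tested. Adamts15 had 29.1, 29.98 and 26.3 scaled CPM in the cochlea against 7.46, 5.92 and 5.43 in the vestibule. It was the member with the largest difference towards the cochlea, 4.52-fold, with a log2 fold change of −2.18 (SE 0.17, adjusted p = 3.9e-05) and little spread within either tissue. Adamts1, a versican-cutting enzyme of developing heart and ovary, had 25.1, 30.1 and 23.4 scaled CPM in the cochlea against 68.4, 39.8 and 36.2 in the vestibule. Its log2 fold change was 0.88 (adjusted p = 0.0275), and vestibule replicate 1 stood well above the other vestibular libraries. The call was lost without that library (log2 fold change 0.55, adjusted p = 0.0521) and without any one of the cochlear libraries, at adjusted p-values of 0.0848, 0.0575 and 0.057 for replicates 1 to 3.

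Adamts20, the gene mutated in belted mice with their white band of fur, had 3.64, 3.02 and 6.00 scaled CPM in the cochlea against 13.04, 7.28 and 8.77 in the vestibule. Its log2 fold change was 1.20 (SE 0.32, adjusted p = 0.0226). That call was lost without cochlea replicate 1 (adjusted p = 0.0783), cochlea replicate 2 (adjusted p = 0.0901) or vestibule replicate 1 (adjusted p = 0.0767), with log2 fold changes of 1.10, 1.003 and 0.94. Summed melanocyte genes were also higher in all 3 vestibular libraries, as were hair cell, macrophage, endothelial, Schwann cell and dark cell genes, among others. The part of any of these cells in the Adamts20 result was not tested. Adamts5, the aggrecanase of adult cartilage, had 15.1, 12.6 and 9.80 scaled CPM in the cochlea against 19.4, 15.9 and 18.2 in the vestibule. Its libraries did not overlap, and its adjusted p was 0.0754. Without cochlea replicate 1 it was called higher in the vestibule (log2 fold change 0.67, adjusted p = 0.049). Adamts4, Adamts8 and Adamts9 overlapped between the tissues. Adamts9 was the most abundant of these 3, at 100 ± 37.2 scaled CPM in the cochlea and 115 ± 17.8 in the vestibule, and Adamts8 the least, at 1.59 ± 0.36 and 1.36 ± 0.28 (SD, n = 3). Without cochlea replicate 3, whose Adamts9 value of 143 was the highest of all 6, Adamts9 was called higher in the vestibule (log2 fold change 0.54, adjusted p = 0.0412).

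The remaining ADAMTS proteases form pairs of close relatives, and in no pair were both called. ADAMTS10 and ADAMTS6 act at fibrillin microfibrils. Adamts10 had 15.8, 19.7 and 24.2 scaled CPM in the cochlea against 117, 56.2 and 40.8 in the vestibule. All vestibular libraries were higher, and vestibule replicate 1 was far above the others. The log2 fold change was 1.84 (SE 0.36, adjusted p = 0.00571), and it was 1.31 without vestibule replicate 1. Adamts6 had 2.63, 2.87 and 9.94 scaled CPM in the cochlea against 7.30, 5.84 and 3.17 in the vestibule. The high cochlear library was replicate 3, and the log2 fold change of 0.08 (SE 0.52) came with a range of −0.24 to 0.99 over the alternatives. Adamts17, linked with short stature and eye disease, had 98.5, 151 and 124 scaled CPM in the cochlea against 74.9, 58.8 and 68.8 in the vestibule. The log2 fold change was −0.88 (SE 0.18, adjusted p = 0.0061), while its relative Adamts19 overlapped at 34.9 ± 8.73 and 37.97 ± 6.09 scaled CPM (SD, n = 3).

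Adamts12 and Adamts7, which cut cartilage oligomeric matrix protein, both overlapped. Adamts12 had 58.4, 62.2 and 83.1 scaled CPM in the cochlea against 109, 72.2 and 80.7 in the vestibule, with a log2 fold change of 0.36 (SE 0.20, adjusted p = 0.208). Adamts7 was at 35.4 ± 4.82 and 40.3 ± 7.27 scaled CPM. Adamts16 and Adamts18, the other pair, were at 12.4 ± 3.14 and 16.5 ± 2.74 and at 1.64 ± 0.54 and 1.95 ± 0.56 scaled CPM (cochlea and vestibule, SD, n = 3). Neither was called.

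All 5 ADAMTS-like genes had every vestibular library above every cochlear one, as had 22.3% of all genes tested, and 3 were called, against 15.8% of all genes in that direction. Adamtsl1 (punctin) had 39.6, 48.8 and 58.6 scaled CPM in the cochlea against 132, 112 and 95.2 in the vestibule, with a log2 fold change of 1.21 (SE 0.18, adjusted p = 0.00137). Adamtsl4, which binds fibrillin-1 and is mutated in displaced lenses, had 1.71, 3.43 and 2.76 scaled CPM in the cochlea against 9.05, 8.21 and 10.6 in the vestibule. Its log2 fold change was 1.81 (SE 0.27, adjusted p = 0.00129). Adamtsl3 had 4.22, 2.38 and 6.45 scaled CPM in the cochlea against 12.03, 11.6 and 6.58 in the vestibule. Its closest libraries nearly touched: cochlea replicate 3 and vestibule replicate 3. The log2 fold change was 1.21 (SE 0.37, adjusted p = 0.0414), and the call was lost without cochlea replicate 1 or 2 or vestibule replicate 1 or 2, at adjusted p-values of 0.11, 0.114, 0.12 and 0.125. Adamtsl2, mutated in geleophysic dysplasia, and Adamtsl5 were low. Adamtsl2 was at 2.21 ± 0.27 and 3.30 ± 0.17 scaled CPM with an adjusted p of 0.0764, and Adamtsl5 at 1.14 ± 0.13 and 1.62 ± 0.20 with an adjusted p of 0.162 (SD, n = 3). Adamtsl2 was called higher in the vestibule in 3 of 17 alternatives: library size alone, 1 CPM in all libraries and the looser threshold.

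**Figure D3:**
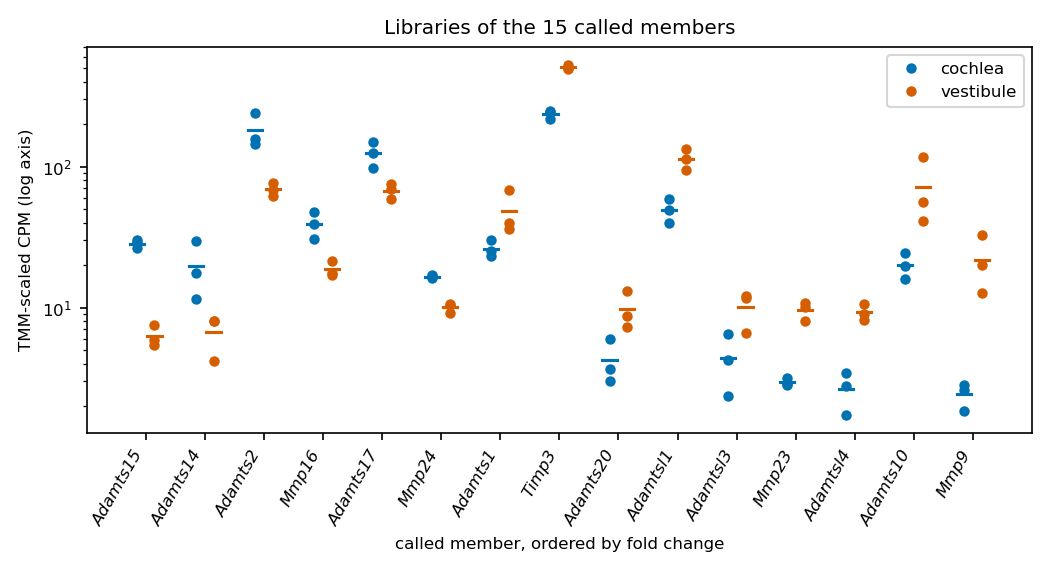
Scaled CPM (log axis) of the 15 called members in each library, ordered by log2 fold change, with cochlear libraries in blue, vestibular libraries in orange and short lines at the means. Adamts15, Timp3 and Mmp23 show tight and separate groups, while vestibule replicate 1 is the highest point of Adamts10, Adamts1 and Adamts20.

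Levels between genes were compared on the RPKM scale (counts divided by gene length and library size), from the log2 RPKM matrix that the authors deposited. Mmp2 was the most abundant Mmp transcript in both tissues, at 222 ± 11.8 RPKM in the cochlea and 228 ± 12.4 in the vestibule (SD, n = 3), and it made up 52.7% to 56.2% of the summed Mmp RPKM in the cochlear libraries and 51.5% to 56.2% in the vestibular ones. Mmp14 was next at 129 ± 17.98 and 130.3 ± 23.2 RPKM. Mmp9 rose from rank 9 to rank 5 of 11, with 0.12% to 0.20% of the sum in the cochlea and 0.84% to 2.28% in the vestibule. There were 269 to 456 Mmp2 RPKM for each Mmp9 RPKM in the cochlear libraries and 24.6 to 61.6 in the vestibular ones.

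Timp2 was the main inhibitor transcript, with 82.4% to 82.7% of the summed Timp RPKM in the cochlea and 67.6% to 69.7% in the vestibule. Timp3 made up 13.6% to 14.0% and 26.9% to 29.7%, and the ratio of Timp3 to Timp2 went from 0.166 to 0.170 in the cochlea to 0.386 to 0.439 in the vestibule. The ratio of summed Timp to summed Mmp RPKM overlapped, at 0.458 to 0.556 and 0.484 to 0.594. The Timp sum itself did not overlap, at 178 to 215 and 226 to 240 RPKM. Its log2 difference was 0.20, and 0.079 after rescaling by TMM factors. 

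Within the Adamts family the order of levels differed between the tissues. Adamts2 and Adamts17 led in the cochlea, at 18.6 ± 5.77 and 16.5 ± 2.96 RPKM, and were at rank 7 and rank 3 of 18 in the vestibule, at 7.76 ± 1.18 and 9.78 ± 1.38. The vestibule was led by Adamts12 at 14.7 ± 3.79 and Adamts10 at 13.9 ± 8.37 RPKM, and the Adamts10 libraries, at 23.3, 10.9 and 7.42 RPKM, overlapped with those of Adamts12 and of Adamts17 (SD, n = 3). Adamts10 was at rank 10 and Adamts15 at rank 8 in the cochlea, and Adamts15 at rank 15 in the vestibule. The ratio of Adamts10 to Adamts15 was 0.59 to 1.003 in the cochlear libraries and 8.15 to 17.0 in the vestibular ones. The summed RPKM of the family overlapped, at 77.0 to 109 and 73.2 to 123, as did that of the Mmp family, at 385 to 446 and 403 to 467. The Adamtsl sum did not overlap, at 4.996 to 7.23 and 12.8 to 18.1, and 67.9% to 73.3% of it was Adamtsl1 in every library.

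**Figure D4:**
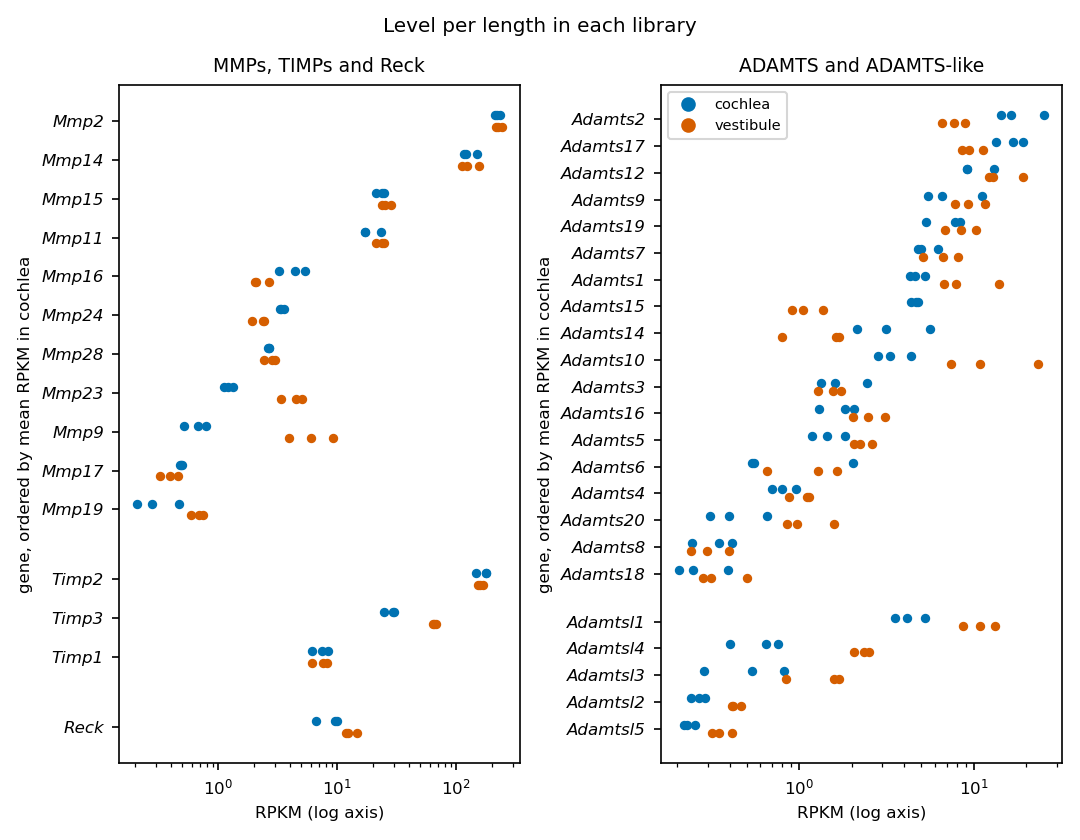
RPKM (log axis) of each tested member in the 3 cochlear (blue) and 3 vestibular (orange) libraries, ordered within each family by the mean in the cochlea. Mmp2, Mmp14 and Timp2 stand above 100 RPKM in both tissues, and Timp3 moves from 28.0 to 65.0 RPKM on average.

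The genes these enzymes act with were read from 8 lists of 76 genes. Among 11 genes of the ADAM family, the membrane-bound relatives, 5 (45.5%) were called, all higher in the vestibule. Of all genes, 27.4% were called and 15.8% called in that direction. Their largest log2 fold changes were 3.70 for Adam33 (SE 0.72, adjusted p = 0.00506), 3.42 for Adam8 (SE 0.51, adjusted p = 0.00131) and 1.96 for Adam12 (SE 0.25, adjusted p = 0.000486). The shedding enzymes Adam10 and Adam17 were not called. Adam33 was low, with 0.13 ± 0.14 scaled CPM in the cochlea and 1.83 ± 1.05 in the vestibule (SD, n = 3). Of 11 other MMP and ADAMTS relatives, 4 could be tested: Thsd4 (ADAMTSL6), a microfibril protein, was higher in the vestibule (log2 fold change 2.24), and Adamts13, the protease of von Willebrand factor, was higher in the cochlea (−3.58). Adam8, Adam33 and Adamts13, like Plaur and Comp below, reached 1 CPM only in the 3 libraries of the tissue where they were higher, so the filter let them in only because they differed, and the counts of their lists are raised by it. With a vestibular library left out Adam8 and Adam33 could not be tested, and the ADAM list then had 3 calls without vestibule replicate 1 or 2.

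The C-proteinases complete procollagen maturation at the other end of the molecule, and 4 of 5 genes of this list (80%) were called, 2 in each direction, against 27.4% of all genes. Tll1 was higher in the vestibule (log2 fold change 2.78) and Tll2 in the cochlea (−1.93). The enhancers of these enzymes also went apart. Pcolce2 fell from 130 ± 10.8 scaled CPM in the cochlea to 9.41 ± 1.27 in the vestibule (log2 fold change −3.79, SE 0.16, adjusted p = 3.47e-06), and Pcolce rose from 83.4 ± 11.4 to 153 ± 13.4 (SD, n = 3). Bmp1 was at 202 ± 28.1 and 214 ± 23.9 scaled CPM and was not called. Of 9 fibrillar procollagen genes, the substrates, 2 (22.2%) were called, a share under the 27.4% of all genes: Col1a1 (log2 fold change 1.55) and Col1a2 (1.05), both higher in the vestibule. Col2a1 and Col3a1 were not called.

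Other lists cover the activation and control of the enzymes. Of 7 tested genes of the convertase and plasminogen list, 3 (42.9%, against 27.4% of all genes) were called: Plau (urokinase, log2 fold change 2.32) and its receptor Plaur (1.43) in the vestibule, and the convertase Pcsk6 (−1.94) in the cochlea. Plau, at 1.67, 0.98 and 1.01 scaled CPM in the cochlea, also passed the filter through the vestibule. With 1 CPM required in all libraries, 1 call was left in this list. Furin, which activates membrane-type MMPs and ADAMTS proteases, was at 211 ± 49.6 and 215 ± 17.5 scaled CPM (SD, n = 3) and was not called. Of 8 tested further regulators, 3 (37.5%, against the same 27.4%) were called: the testicans Spock1 (−2.86) and Spock3 (−1.96) higher in the cochlea, and thrombospondin-1 (Thbs1, 1.35) higher in the vestibule. A2m and Lrp1, the scavenging inhibitor and the receptor that clears protease complexes, were not called.

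Of 7 ADAMTS substrates, 5 (71.4%) were called, 4 of them higher in the vestibule, against 27.4% of all genes called and 15.8% called in that direction. Acan (aggrecan) rose from 2.99 ± 0.72 scaled CPM in the cochlea to 34.4 ± 8.84 in the vestibule (SD, n = 3), a log2 fold change of 3.52 (SE 0.25, adjusted p = 2.56e-05). Comp (2.099), Vwf (1.80) and Vcan (0.84) were also higher in the vestibule, and Ncan (neurocan, −1.30) was higher in the cochlea, all as log2 fold changes. Vwf is made by endothelial cells, of whose 6 marker genes 4 were called higher in the vestibule and 1, Emcn, in the cochlea. Of 13 microfibril and elastic fibre genes, 6 (46.2%, against 27.4% of all genes) were called, 5 of them higher in the vestibule, among them Ltbp1 (log2 fold change 1.43) and Eln (elastin, 1.16), while Efemp1 (−1.76) was higher in the cochlea. Of the fibrillins, Fbn1 was called higher in the vestibule, at 129 ± 11.5 and 236 ± 18.01 scaled CPM, and Fbn2 was not called, at 491 ± 176 and 387 ± 35.6 (SD, n = 3).

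The promoters of members called in each direction, and of Mmp13, are printed so that the promoters of genes that differed in opposite directions can be seen side by side. They are the 250 bases before the RefSeq start (GRCm38.p6), 5′ to 3′ on the gene's strand, with matches to AP-1 (TGAGTCA), the TATA box (TATAAA) and the GC box (GGGCGG) on either strand in capitals. Adamts2 and Adamts17 were higher in the cochlea, Mmp23 and Adamtsl4 in the vestibule.
Adamts2: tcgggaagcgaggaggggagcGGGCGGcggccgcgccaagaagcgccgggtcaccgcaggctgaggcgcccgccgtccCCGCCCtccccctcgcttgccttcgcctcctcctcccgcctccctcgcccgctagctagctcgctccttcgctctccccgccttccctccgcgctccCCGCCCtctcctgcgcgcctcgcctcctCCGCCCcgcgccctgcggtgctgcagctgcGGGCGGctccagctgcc
Adamts17: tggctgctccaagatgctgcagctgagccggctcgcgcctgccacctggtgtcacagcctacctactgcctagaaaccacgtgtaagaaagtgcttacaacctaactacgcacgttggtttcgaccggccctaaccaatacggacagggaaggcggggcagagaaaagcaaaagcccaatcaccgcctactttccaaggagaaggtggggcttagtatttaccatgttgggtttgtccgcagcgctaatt
Mmp23: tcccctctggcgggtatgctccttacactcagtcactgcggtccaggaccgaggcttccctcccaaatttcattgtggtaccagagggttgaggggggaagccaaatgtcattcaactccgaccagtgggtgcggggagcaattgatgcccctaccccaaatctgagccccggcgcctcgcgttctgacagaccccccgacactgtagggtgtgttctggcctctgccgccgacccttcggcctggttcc
Adamtsl4: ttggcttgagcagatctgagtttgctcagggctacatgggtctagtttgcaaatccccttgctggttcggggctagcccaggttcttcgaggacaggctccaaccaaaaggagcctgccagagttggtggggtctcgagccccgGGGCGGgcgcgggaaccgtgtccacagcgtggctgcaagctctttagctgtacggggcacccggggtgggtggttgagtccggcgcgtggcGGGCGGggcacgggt
Mmp13: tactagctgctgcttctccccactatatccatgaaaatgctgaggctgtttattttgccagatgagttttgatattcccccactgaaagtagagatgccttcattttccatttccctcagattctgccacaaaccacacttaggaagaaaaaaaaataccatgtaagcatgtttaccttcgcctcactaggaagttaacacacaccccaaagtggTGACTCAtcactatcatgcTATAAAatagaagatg
They lie at chr11:50601835-50602084 (plus strand), chr7:66839485-66839734 (plus strand), chr4:155653385-155653634 (minus strand), chr3:95687918-95688167 (minus strand) and chr9:7272264-7272513 (plus strand), in that order. RefSeq promoters were at hand for 28 of the 43 members, and for matching the window of 300 bases also took the 50 bases after the start. The table had no entry for Adamts4, Adamts5, Adamts6, Adamts7, Adamts8, Adamts10, Adamts15, Adamts16, Adamts19, Adamtsl1, Mmp2, Mmp9, Mmp16, Mmp17 or Mmp19. The AP-1 letters were in 2 of the 28, Mmp3 and Mmp13, and in 5.2% of all 32851 promoters. The TATA letters were in 5 of 28 (Mmp3, Mmp8, Mmp13, Adamts1 and Adamtsl2) against 13.6% of all promoters, and GGGCGG in 20 of 28 against 35.7%. The median GC content was 66% in the members' windows and 52.7% in all. The Adamts17 and Mmp23 windows held none of these 3 motifs, so called members of either direction were found with and without the GC box.

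Several members are neighbours in the genome. Mmp13, Mmp12, Mmp3 and Mmp8 lie in this order on chromosome 9 (GRCm38), from position 7272514 to 7568485, and all 4 were below the filter. Adamts15 and Adamts8 lie 20109 bases apart on the same chromosome, at 30899155 to 30922452 and 30942562 to 30963838, on opposite strands. Adamts15 was called and Adamts8 was not. Adamts1 and Adamts5 lie 53059 bases apart on chromosome 16, on the same strand, at 85793827 to 85803113 and 85856173 to 85901828. Both had every vestibular library above every cochlear one, and Adamts1 was called. Timp1, Timp3 and Timp4 each lie inside a synapsin gene on the opposite strand, Syn1, Syn3 and Syn2. Exons on the opposite strand also cover 13.6% of the exon length of Mmp24 and smaller parts of Mmp11, Mmp12, Mmp28, Timp4, Adamts4, Adamts7 and Adamts9. Counts of these members and of Timp3 and Mmp19 may be affected, since reads there can be told apart only by strand. The paper names a stranded library kit. How many reads fell in these overlaps was not measured.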

How the data were processed

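RNA-seq libraries of 3 cochlear and 3 vestibular sensory epithelia were grouped by their tissue labels. The authors aligned 100 bp read pairs to GRCm38 (TopHat2 2.1.0, SAMtools 0.1.18 and HTSeq 0.5.4p5 per the submitters' processing notes) and deposited unnormalized counts per Ensembl gene. They also deposited a log2 RPKM matrix of 14722 genes made with edgeR 3.4.2, scaled by library size without TMM. The 5 summary lines of each count file (18.5% to 20.6% of listed counts) stayed out of library sizes and tests.

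The genes tested had 1 CPM or above in no fewer than 3 libraries. Their counts were compared with the quasi-likelihood test of edgeR 4.0.16 (R 4.3.3) after TMM scaling, with no covariate, Benjamini-Hochberg adjustment over 14723 genes and an FDR of 0.05. Alternatives were other scalings, filters and thresholds, DESeq2 1.42.0, limma-voom (limma 3.58.1), edgeR's exact test, a replicate block and leaving out each library. The members, the gene lists and the tests were chosen with earlier results of these data known. Every member was named. Full statistics were given for those past the FDR with an absolute log2 fold change of at least 1 and for the 3 of each family with the highest mean RPKM, and from each pathway list up to 3 genes past the FDR with the largest change were named with their log2 fold change. Ibsp, Sp7, S100a8, S100a9, Tyrp1, Mlana, Emcn, Tubb3, Stmn2, Elavl4, Matn1, Cnmd, Bglap, Vcan, Ncan, Pcolce, Fbn1 and the uncalled list genes were named after their values were seen. The same holds for Lum, Pou3f4, Pdgfra, Tbx18, Acp5 and Ctsk. Gene coordinates are those of GENCODE vM21, a different release from that used for counting, and promoters are from RefSeq. Python 3.11.15 and matplotlib 3.10.9 made the figures. At 1 CPM a gene had 24.5 to 33.7 counts, and a gene at that level carries the counting error of such counts.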

Additional observations from a re-analysis of the deposited data

How the results depend on the processing

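Under the 17 other settings all 15 called members kept their sign, and 12 of the 15 were called in every fit with 1 library left out; the exceptions were Adamts1, Adamts20 and Adamtsl3. With 1 library left out, members higher in the vestibule numbered 6 to 10 and those higher in the cochlea 6 to 6. Over all genes the counts were 1342 to 2694 and 925 to 1863, lowest without vestibule replicate 2 and highest without cochlea replicate 3. Called genes were 5 to 7 in Adamts, 2 to 3 in Adamtsl, 4 to 5 in Mmp, 1 to 1 in Timp, 3 to 5 in the ADAM list, 1 to 2 among the other relatives, and 2 to 3 in the convertase list. The ADAM list had 3 without vestibule replicate 1 or 2, and the relatives 1 without any one cochlear library.

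With at least 1 CPM required in all libraries, fewer genes could be tested, and 1 call was left among the other relatives, 3 in the ADAM list and 1 in the convertase list. The looser threshold (FDR 0.1, fold change 1.3) gave 5 calls among the further regulators and 13 members higher in the vestibule. Scaling by library size alone moved the median over all genes tested from 0.0048 to 0.126 (log2) and gave 13 members higher in the vestibule and 6 in the cochlea, and the share of all calls that were higher in the vestibule went from 57.6% to 68.8%. The log2 differences of summed RPKM were 0.07 for Mmp, 0.03 for Adamts, 1.37 for Adamtsl and 0.20 for Timp. After rescaling by TMM factors they were −0.052 for Mmp and 0.079 for Timp, and with 1 added to each RPKM the Adamtsl value was 0.89. The ranges with 1 library left out were −0.00015 to 0.14, −0.18 to 0.19, 1.25 to 1.51 and 0.11 to 0.25.

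The labels number the libraries 1 to 3 in each tissue, and same-numbered libraries deviated in opposite directions (correlations −0.19, −0.28 and −0.49). Deviations from a mean of only 3 libraries are tied to each other, so these correlations cannot settle whether the numbers pair the libraries. With a replicate block 12 of the 15 members were called, 7 higher in the vestibule and 5 in the cochlea, and 1009 genes in all were higher in the cochlea. Adamts1, Adamts14 and Adamtsl3 were not called there. The 5 members below the filter reached at most 1.49 CPM in any library. The cause of these shifts was not tested except where fewer genes or libraries entered.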
